A study of Mus musculus with 2 samples.

Results

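Cleavage under targets and release using nuclease (CUT&RUN) was used to map Aiolos in mouse natural killer (NK) cells, and the peaks described here are those that the deposited annotation gave to 10 genes of the NFAT and NF-kB signalling pathways. The genes were Nfatc1, Nfatc2, Nfatc3, Nfkb1, Nfkb2, Rel, Rela, Nfkbia, Map3k8 and Tnfaip3, and a peak belonged to the set when its assigned symbol was among them. That rule took 4 of 1404 peaks, which named 3 of the 10 genes: Nfatc3, Nfatc1 and Map3k8. The study held 1 library made with an antibody to Aiolos, the Ikaros family zinc finger protein encoded by Ikzf3, and 1 library made with no primary antibody. Both came from splenic NK cells grown in complete IMDM with 50 ng/ml interleukin-15 until at least 500000 cells were obtained per sample. Strain, genotype, age and sex were not given in the sources used here, and a peak list holds no expression values against which NK identity could be checked.

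NFAT and NF-kB are the transcription factor families that carry activating receptor and cytokine signals to the nucleus of lymphocytes. Calcium entry activates the phosphatase calcineurin, which removes phosphates from NFAT proteins so that they enter the nucleus, where they often bind together with AP-1. NF-kB dimers of Rel family subunits are held in the cytoplasm by IkB proteins until the IKK kinases mark IkB for destruction, and NF-kB then induces its own inhibitors, among them IkB alpha (Nfkbia) and A20 (Tnfaip3). In NK cells these pathways act downstream of activating receptors and of interleukin-18, and help to induce interferon gamma and other cytokines.

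The promoters on which the comparison turns are shown first, as the 250 bases before a RefSeq transcription start (build GRCm38.p6, the assembly that mm10 names). Capitals mark every match to GGGAA, the core recognised by Ikaros family zinc fingers, read on both strands, so that TTCCC is the same match on the other strand. The first 2 sequences precede the 2 annotated starts of Nfatc3, chr8:106058568-106058817 and chr8:106059340-106059589 on the plus strand, and are shown because the only promoter peak of the set lay between them and had its summit in the second. Nfat5, on chr8:107293220-107293469, plus strand, is the family member outside the 10 genes with a promoter peak, which covered 123 of these bases. Nfkb2, on chr19:46304487-46304736, plus strand, is an NF-kB subunit gene, shown before the first of its 3 starts that have a promoter window. The RefSeq gene itself begins farther upstream, at 46300994. Nfkbia, on chr12:55492648-55492897, minus strand, is an NF-kB inhibitor gene. Both had no assigned peak and are shown for their matches to GGGAA and to the NF-kB consensus.
Nfatc3 first start: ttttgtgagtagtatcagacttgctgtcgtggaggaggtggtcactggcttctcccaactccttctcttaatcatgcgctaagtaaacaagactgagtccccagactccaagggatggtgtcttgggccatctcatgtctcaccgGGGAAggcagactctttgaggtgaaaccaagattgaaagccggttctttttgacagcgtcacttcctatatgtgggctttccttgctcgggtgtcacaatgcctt
Nfatc3 second start: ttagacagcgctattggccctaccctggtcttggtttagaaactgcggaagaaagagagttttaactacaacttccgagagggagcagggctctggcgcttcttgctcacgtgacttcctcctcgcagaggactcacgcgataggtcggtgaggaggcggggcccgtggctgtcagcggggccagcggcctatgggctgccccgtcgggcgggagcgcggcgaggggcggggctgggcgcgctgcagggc
Nfat5: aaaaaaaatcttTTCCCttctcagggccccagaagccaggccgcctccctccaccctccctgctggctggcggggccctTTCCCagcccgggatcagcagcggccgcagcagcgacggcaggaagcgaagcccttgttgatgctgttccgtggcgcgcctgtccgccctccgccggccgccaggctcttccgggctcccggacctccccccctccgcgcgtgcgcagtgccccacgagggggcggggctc
Nfkb2: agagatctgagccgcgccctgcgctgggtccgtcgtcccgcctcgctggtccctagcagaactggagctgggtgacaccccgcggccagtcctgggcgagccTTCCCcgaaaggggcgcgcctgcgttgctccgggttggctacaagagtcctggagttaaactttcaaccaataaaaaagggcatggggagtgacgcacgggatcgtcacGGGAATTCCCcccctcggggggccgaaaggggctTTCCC
Nfkbia: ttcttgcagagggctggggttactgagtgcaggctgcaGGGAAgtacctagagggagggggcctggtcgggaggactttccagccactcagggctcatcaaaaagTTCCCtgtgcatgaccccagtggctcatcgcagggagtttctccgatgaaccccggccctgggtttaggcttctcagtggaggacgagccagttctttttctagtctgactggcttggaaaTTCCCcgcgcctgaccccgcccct

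The stretch before the second Nfatc3 start held 0 matches to GGGAA, the stretch before the first start 1 and that of Nfat5 2. Of the 507 bp of the Nfatc3 peak, the second stretch holds 13 and the first 0, so nearly all of the sequence under that peak was not searched. The Nfkb2 stretch held 4 matches and the Nfkbia stretch 3, with no peak in either. These were the richest in GGGAA of the 10 windows of the set with no peak: the 300-base windows of Nfatc2, Rel, Rela, Tnfaip3 and the other Nfkb2 starts held 1 or 2 matches each. In the Nfkb2 stretch, 2 of the matches lay inside a match to the NF-kB consensus, which occurred 3 times there, and in the Nfkbia stretch 1 match lay inside the single NF-kB consensus. A match is a description of the letters and does not show that a protein bound there.

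Of the NFAT factors, Nfatc3 had the 1 promoter peak of the set and Nfatc1 an intronic peak. Nfatc3 encodes NFATc3 (NFAT4), a calcineurin-dependent NFAT protein. Its peak lay on chromosome 8 at 106058846 to 106059352 (mm10), 507 bp wide, with its near edge 6 bp downstream of the start of the assigned transcript. The fold enrichment, which is the authors' value here and for every peak below, is read here as the tag pileup at the summit plus 1 over the local background plus 1. It was 5.05 for Nfatc3, with a 95% exact Poisson counting interval of 2.41 to 9.73, from 7 tags over a background of 0.586 tags. The summit stood at the far end of the peak, 3 bp from its right edge, 509 bp downstream of the assigned start and 241 bp upstream of the second RefSeq start. The peak thus lay within the interval between the RefSeq starts, and covered 22 bases of the 300-base window around the first and 13 bases of the window around the second.

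Nfatc1 encodes NFATc1 (NFAT2), whose short isoforms are induced by NFAT itself in T cells. Its peak lay on chromosome 18 at 80612239 to 80612652, 414 bp wide, in the last intron of an Nfatc1 transcript. The assigned transcript was a short one of 1586 bp, and the summit was 3467 bp upstream of its start. Measured along the gene in the gene table, which spans 107 kb, the summit was 101 kb from the first base and 6.24 kb from the last. The fold was 4.83 (2.11 to 10.2), from 5 tags over a background of 0.242 tags. Nfatc2, which encodes NFATc2 (NFAT1), had no assigned peak. The peak closest to its gene body was 971 kb away in an intron of Rnf114, a ubiquitin ligase gene, with a fold of 7.59 (3.76 to 14.1).

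Map3k8, which encodes the kinase TPL2 (COT) that links IKK activity to ERK, had 2 peaks, both intergenic and on chromosome 18 beyond the 3' end of the gene. The stronger, at 4278590 to 4278823, had a fold of 5.63 (2.58 to 11.3) from 6 tags over a background of 0.242 tags, and lay 52.5 kb from the gene body. The other, at 4302824 to 4303034, had a fold of 4.40 (1.92 to 9.29) from 5 tags over 0.364 tags, and lay 28.3 kb from the gene body. The peaks were 24.0 kb apart. Map3k8 was the closest protein-coding gene for both: the next were Lyzl1, 96.4 kb from the stronger peak, and Mtpap, 72.6 kb from the other. Both peaks were farther from the gene than the gene is long (21.6 kb).

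**Figure D1:**
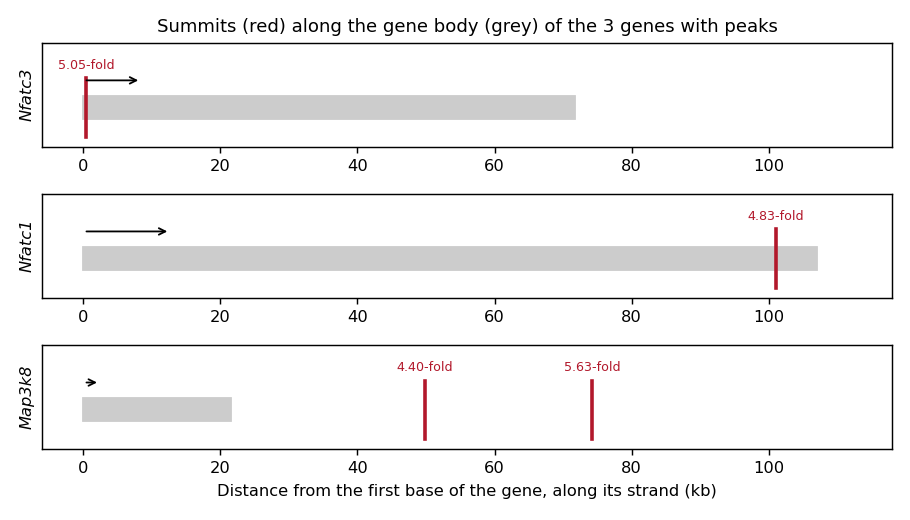
Summits of the 4 peaks (red lines, with the fold enrichment) on the 3 genes that have one, against the gene body (grey) with distance in kb from the first base of the gene along its strand and the arrow showing the direction of transcription. The Nfatc3 summit is 0.531 kb from the first base, the Nfatc1 summit is 101 kb from it near the far end of the gene, and the Map3k8 summits are 49.9 and 74.2 kb from it, beyond the gene.

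The 4 NF-kB subunit genes of the set, Nfkb1 (p105/p50), Nfkb2 (p100/p52), Rel (c-Rel) and Rela (p65), had no assigned peak. The closest of them to a peak was Nfkb2, with a peak 15.8 kb from its body that overlapped the start of Fbxl15, an F-box protein gene, at 9.66-fold (5.22 to 16.7). Rela was 40.6 kb from a peak at the start of Pcnx3, at 8.07-fold (4.25 to 14.2). Rel was 75.4 kb from an intergenic peak assigned to Papolg, a poly(A) polymerase gene, at 4.22-fold (1.76 to 9.48) from 4 tags, and no protein-coding gene lay wholly between them. Nfkb1 was 144 kb from a peak that the authors classed as promoter, assigned to Ube2d3, a ubiquitin-conjugating enzyme gene, at 4.65-fold (2.03 to 9.81). The near edge of that peak was 950 bp from the assigned start, and its centre lay beyond the 1000 bp used below to define a promoter peak.

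Both inhibitors of the set were without an assigned peak. Nfkbia had its nearest peak 409 kb away, at the start of Srp54a, a signal recognition particle gene, at 12.1-fold (6.97 to 19.7). Tnfaip3 lay farthest of all 10 genes from a peak, 1280 kb from one at the promoter of Cited2, a transcriptional co-regulator gene, at 5.63-fold (2.58 to 11.3), and had 0 peaks within 1 Mb of its body. The median gap from gene body to nearest peak was 58.0 kb over all 10 genes and 404 kb over 21631 protein-coding genes, and 144 kb over the 7 of the 10 with no assigned peak. The single gaps ran from overlap to 1280 kb, and the 10 genes were chosen with earlier results known. The difference between these medians was not tested. A site could be missing from the list for want of depth: the peaks with the fewest tags had 4, at a background of at most 0.291 tags, and at a background of 1 to 2 tags the weakest listed peak had 8.

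**Figure D2:**
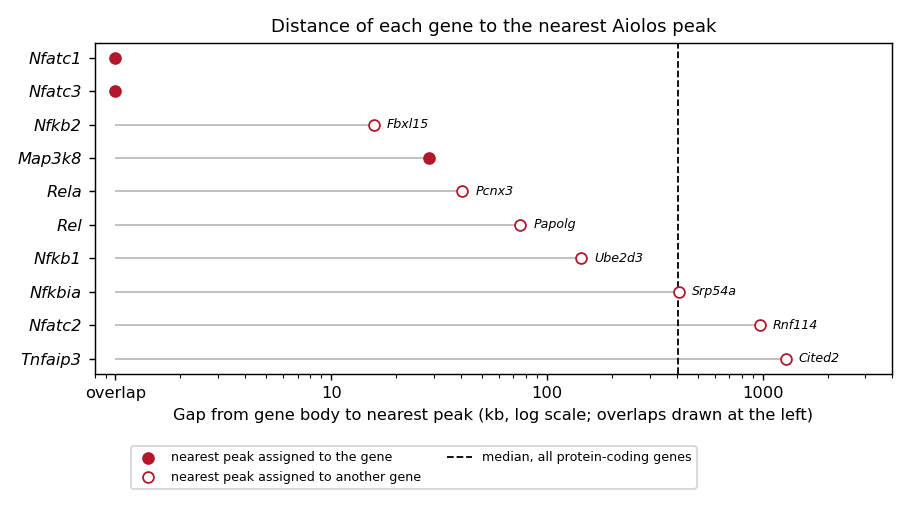
Gap in kb (log scale) from each gene body of the 10-gene set to the nearest peak, with overlaps drawn at the left edge, filled points where that peak is assigned to the gene itself, open points where it is assigned to the gene printed beside the point, and the median of protein-coding genes (404 kb) as a dashed line. Nfatc1 and Nfatc3 overlap a peak, and Nfatc2 and Tnfaip3 are 971 and 1280 kb from the nearest.

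In numbers, 3 of the 10 genes had an assigned peak, where 5.38% of 21900 protein-coding genes had one. For a promoter peak, centred no more than 1000 bp from the assigned start, the count was 1 of 10 genes, against 3.79% of protein-coding genes. For a peak edge within 10000 bp of a start it was 2 of 10 genes, Nfatc1 and Nfatc3, against 4.57%. With 10 genes chosen with earlier results known, these counts describe the set and carry no test.

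The 4 peaks were all weak within this list. Their folds ran from 4.40 to 5.63 with a median of 4.94, against a median of 6.44 over all 1404 peaks, and 0 of the 4 were above that median. The ranks by fold were 953 and 1328 for the Map3k8 peaks, 1148 for Nfatc3 and 1214 for Nfatc1, of 1404. Their -log10 q values were 3.998 and 1.99 for Map3k8, 2.81 for Nfatc3 and 2.78 for Nfatc1, against a median of 5.32 over all peaks. The tags at the summit numbered 5 to 7 with a median of 5.5, against 4 to 63 with a median of 8 over all peaks. The counting interval of each of the 4 included the median fold of all peaks, and the intervals overlapped one another. The order among the 4 rests on 5 to 7 tags each and was not tested. The Nfatc3 peak stood higher by tags than by fold, at rank 803, over a background higher than that of the other 3. None of the 4 peaks was in the upper part of the list, whether this was the 727 peaks with a -log10 q of at least the median or the 687 above the median fold.

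**Figure D3:**
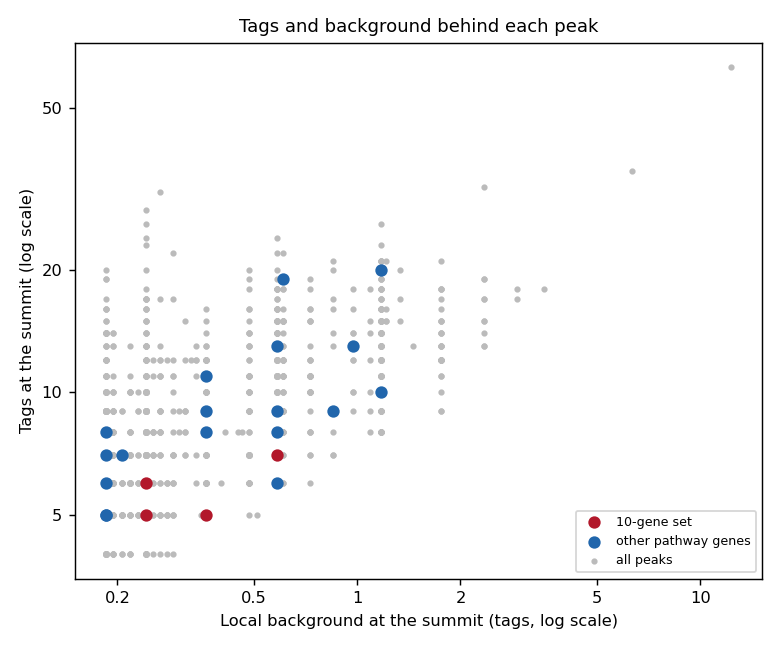
Tags at the summit against local background in tags, both on log scales, for the 4 peaks of the 10-gene set (red), the 18 peaks of other pathway genes (blue) and all 1404 peaks (grey), with equal values drawn on top of each other. The red points lie at 5 to 7 tags, near the lower edge of the grey cloud, and the blue points reach 20 tags.

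To place the 10 genes in their pathways, 107 genes in 12 lists by role were read the same way. With the 10 genes left out, 16 of 97 genes had an assigned peak (16.5%, against 5.38% of protein-coding genes). The lists too were chosen with earlier results of these data known, so this share carries no test. These genes had 18 peaks in all. Of these 18 peaks, 12 were promoter peaks (66.7%), against 1 of the 4 peaks of the 10-gene set and 64.8% of all peaks. Their folds ran from 4.41 to 12.5 with a median of 6.62, and 10 of the 18 were above the median of all peaks. The 12 promoter summits lay upstream of the start in 7 cases and downstream in 5.

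Among the subunits and factors left out of the 10 genes, Relb and Nfat5 had promoter peaks. Relb, the subunit that pairs with p52 in the alternative NF-kB pathway, had a peak of 645 bp on chromosome 7 at 19628575 to 19629219, over the start of the assigned transcript. Its fold was 9.67 (6.09 to 14.7), from 20 tags over 1.17 tags, which ranked 152 by fold and 22 by tags among the 1404 peaks. Its summit was 75 bp downstream of the assigned start and 0.729 kb inside the gene from the first base in the gene table. Nfat5, the NFAT relative that responds to hypertonic stress and does not depend on calcineurin, had a peak of 4.41-fold (2.02 to 8.87) from 6 tags, with its summit 271 bp upstream of the start. With these, 3 of 5 NFAT factor genes and 1 of 5 Rel family genes had an assigned peak, against 5.38% of protein-coding genes. With 5 genes in each list, the 2 counts were not tested against each other.

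In the calcium and calcineurin arm, the strongest peak belonged to Calm3, 1 of the calmodulin genes, at 12.5-fold (7.74 to 19.1) from 19 tags, with its summit 277 bp upstream of the start. It was the only 1 of the 22 pathway peaks whose counting interval did not include the median fold of all peaks. Ppp3cc, a catalytic subunit of calcineurin, had an intronic peak of 6.75-fold (3.22 to 13.01) with its summit 5440 bp downstream of the start. Gsk3a and Gsk3b, kinases that phosphorylate NFAT and promote its nuclear export, had promoter peaks of 8.83-fold (4.996 to 14.7) and 5.41-fold (2.77 to 9.78). Stim1, the calcium sensor of the endoplasmic reticulum, had a promoter peak of 5.07-fold (2.67 to 8.93). Itpr1, an inositol trisphosphate receptor that releases calcium, had a peak of 5.68-fold (2.81 to 10.6) that the authors placed in a 3' untranslated region, 1.29 kb from the last base of the gene. By list, calcineurin and its regulators had 2 of 13 genes with a peak, export kinases and scaffolds 2 of 8 and calcium entry 2 of 10. Of all protein-coding genes, 5.38% had an assigned peak, and lists this short carry no test.

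In the signalling chain to IKK, Ripk2, the kinase downstream of NOD receptors, had a promoter peak of 8.80-fold (4.76 to 15.2) from 11 tags. Malt1, the paracaspase of the CARMA1-BCL10-MALT1 complex, had a promoter peak of 6.31-fold (3.23 to 11.4), and Prkcq, protein kinase C theta, a peak of 5.06-fold (2.21 to 10.7) in an exon of another transcript, with its summit 20929 bp downstream of the start. Tab1, a partner of the kinase TAK1, had a promoter peak of 5.06-fold (2.21 to 10.7) from 5 tags. Tnfrsf9, the costimulatory receptor 4-1BB, had 2 promoter peaks, near the assigned starts of different transcripts, of 7.33-fold (3.75 to 13.3) and 6.60-fold (3.27 to 12.3). The 7.33-fold summit was 4.44 kb inside the RefSeq gene, and the 6.60-fold peak lay 4.54 kb upstream of it. Neither peak overlapped a RefSeq promoter window of Tnfrsf9. It was the only 1 of 17 TNF and interleukin-1 family receptor and adaptor genes with a peak (5.88%, against 5.38% of protein-coding genes). The TRAF, RIP and IAP adaptors had 1 of 11, IKK and upstream kinases 2 of 12 and the CARMA1 module 2 of 6, and none of these counts was tested.

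Of the feedback inhibitors and deubiquitinases, 3 of 11 genes had a peak (27.3%, against 5.38% of protein-coding genes), and Tnfaip3 was not among them. Zc3h12a, the RNase Regnase-1 that degrades inflammatory mRNAs, had a promoter peak of 7.11-fold (4.02 to 11.8) from 13 tags. Itch, a ubiquitin ligase that acts with A20, had an intronic peak of 7.59-fold (3.76 to 14.1) with its summit 2544 bp downstream of the start. Otulin, the deubiquitinase of linear chains, had peaks of 6.63-fold (3.16 to 12.8) and 5.90-fold (2.70 to 11.9), which the authors placed in introns of its transcripts. The 5.90-fold peak lay 144 bp outside the RefSeq gene body, beyond its 3' end. The IkB family, with Nfkbia, had 0 of 6 genes with a peak, and the linear ubiquitin ligase 0 of 3. Beside a share of 5.38% of protein-coding genes, lists this short are too small to read anything from an absence.

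**Figure D4:**
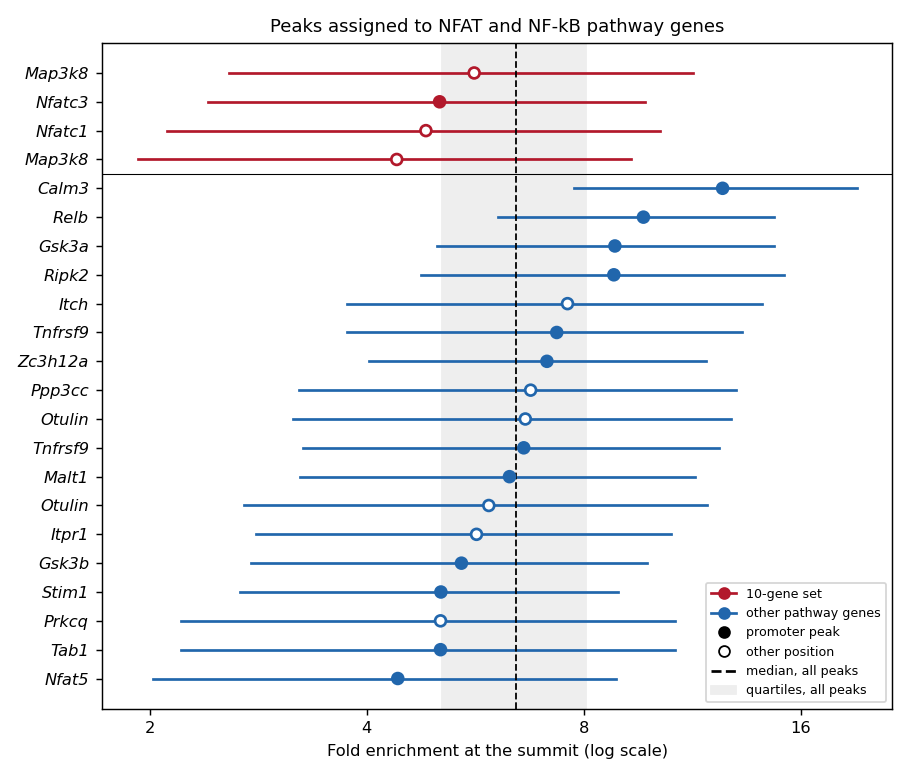
Fold enrichment (log scale) with its 95% counting interval for the 4 peaks of the 10-gene set (red, above the line) and the 18 peaks of other pathway genes (blue), filled for promoter peaks and open for other positions, with the median (dashed) and quartiles (grey band) of all 1404 peaks. The red points lie between 4.40 and 5.63, left of the dashed line at 6.44, and Calm3 and Relb lie farthest right at 12.5 and 9.67.

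**Figure D5:**
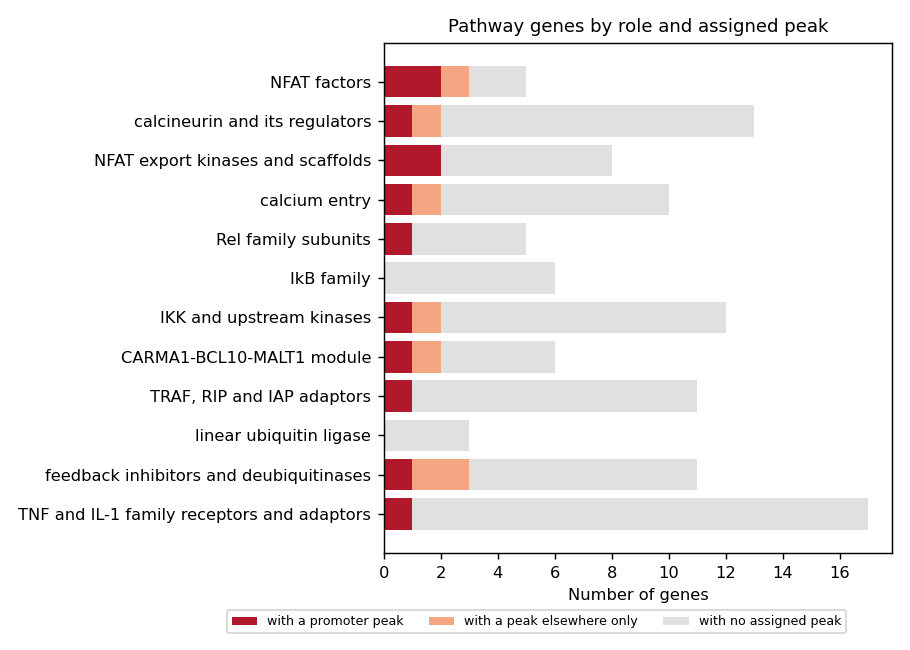
Number of genes in each of the 12 role lists, the 10-gene set included, with a promoter peak (dark), with a peak elsewhere only (light) and with no assigned peak (grey). The NFAT factors have 3 of 5 genes with a peak, the IkB family 0 of 6 and the TNF and interleukin-1 family receptors and adaptors 1 of 17. Of all protein-coding genes, 5.38% had an assigned peak.

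The set was placed beside a pair of families of inducible transcription factors. The set itself is mixed, since it also holds the kinase gene Map3k8 and the inhibitor genes Nfkbia and Tnfaip3. The share of genes with a peak was 30.0% in the 10-gene set, 33.3% of 12 AP-1 core genes and 22.2% of 9 interferon regulatory factor genes. It was 5.38% of all protein-coding genes. Their 4, 7 and 5 peaks had median folds of 4.94, 5.86 and 5.80. The strongest peak was 5.63-fold (2.58 to 11.3) at Map3k8, 13.5-fold (8.38 to 20.7) at Fosb and 7.57-fold (4.09 to 13.04) at Irf2. The intervals of Map3k8 and Fosb overlapped, which by itself does not decide whether these peaks differ. No test of the set and these families against each other was made.

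Sequence motifs were counted in the RefSeq windows of 300 bases, which run from 250 bases before a start to 50 after it, on both strands. Of the 10 genes, 7 had a window, 12 windows in all, and Nfatc1, Nfkb1 and Map3k8 were not searched. Windows of 1 gene can overlap, and the motifs overlap too: TGGGAA contains GGGAA, and a run of GGGAAA holds both GGGAA and the NFAT core GGAAA. The core GGGAA occurred in 11 of the 12 windows, against 62.7% of all 32851 windows and 64.4% of the 845 windows that overlapped a peak. The longer form TGGGAA occurred in 2 of 12, against 25.6% of all windows and 21.3% of those that overlapped a peak. GGAAA occurred in 9 of 12, against 61.3% and 57.3%. TGANTCA, the AP-1 site, occurred in 2 of 12, against 7.81% of all windows and 4.5% of those that overlapped a peak. The NF-kB consensus occurred in 6 of 12, against 8.46% of all windows and 8.88% of those that overlapped a peak. These 6 belonged to 4 genes, all with no assigned peak. The 1 window without GGGAA was that of the second Nfatc3 start. The sequence under the Nfatc3 peak was not searched beyond the 22 and 13 bases that its windows share with it, so these counts do not say whether the peak contains the motif.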

How the data were processed

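The deposited file is 1 list of narrow peaks for the series. MACS2, Bowtie2, Picard and SAMtools and build mm10 are named by the submitters' processing notes without their roles. No source used here gives the peak threshold, or says whether the library without primary antibody served as control. Each peak has, per the file headers, a signal value from the authors, taken here as the fold enrichment of MACS2 (a ratio), the -log10 of its p-value and q-value, and a score, which equals 10 times the -log10 q without decimals. The deposited columns also hold positions, 1-based here, an assigned transcript and gene, and the distance from peak edge to start.

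Whole tag numbers and backgrounds were recovered by solving fold and p together, on the reading that p is the Poisson probability of exceeding the pileup; all 1404 peaks solved to within 0.0001 in -log10 p, and the step was tested on simulated data. Tags ranged from 4 to 63 per summit, and 999 peaks had 10 or fewer. Intervals are exact Poisson at 95% with the background fixed. They cover only the counting error of the summit tags, and leave out that of the background, which is itself small. Each group is 1 library, so replicate error is unknown and no test was made. Gene identifiers of all 1404 peaks matched the RefSeq gene table (GRCm38.p6), whose 21900 protein-coding genes are the background. Promoter sequences are RefSeq's. The named genes are all 10 genes, the peak nearest to each that lacked one, and every gene of the role lists with a peak. The 10 genes and the lists were chosen with earlier results of these data known. Values were computed with Python 3.11.15, pandas 2.3.3 and SciPy 1.17.1. Alternatives were stricter peaks, other windows and limits, merging, assignment by gene body, and other measures of strength.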

Additional observations from a re-analysis of the deposited data

How the results depend on the processing

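Restricting the list to peaks whose -log10 q was at least the median (727 peaks), or to those above the median fold (687 peaks), left 0 of the 10 genes with an assigned peak, against 3, and so 0 peaks, 0 genes with a promoter peak and 0 genes with a peak within 10000 bp of the start, since all 4 peaks lie below both medians. In the same sets the wider lists, here 107 genes with the 10 genes included, kept 9 genes with a peak, against 19. The shares of protein-coding genes with a peak were 2.89% and 2.73%, by construction of fewer peaks. No median fold of the set could be computed there. With pileup as strength the median of the set was 5.5 tags, on another scale, against 8 over all peaks. The promoter count of 1 gene was the same with windows of 500 and 3000 bp, from the peak edge and by the authors' class. By gene body within 10000 bp, 2 of the 10 genes had a peak, Map3k8 dropping out. The same reading gave 21 of the 107 genes of the wider lists, against 8.43% of protein-coding genes. Against all genes of the table, the share with a peak was 2.55%. Of 30 alternatives, 19 left their value within the limits set and 11 moved it. The limits were a fixed ratio for counts, and the counting intervals of fold, which are wide, for ranks and the median fold. Some outcomes were fixed in advance. The change of background to all genes could not alter the count of the 10 genes, and the median in tags was labelled moved for its other scale. Depth limits single peaks: with 5 to 7 tags, the upper end of a counting interval was 4.0 to 4.8 times the lower. No paired analysis was possible because each group is a single library.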

Other observations

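The deposited assignment gives each peak 1 gene, and 3 further pathway genes adjoined a peak assigned to a neighbour. A peak assigned to Psme2, a proteasome activator gene, lay 111 bp from the body of Rnf31, the catalytic subunit of the linear ubiquitin ligase, at 5.26-fold (2.77 to 9.27, 10 tags). It covered 111 bases of the RefSeq promoter window of Rnf31. A peak assigned to Fbxl8 lay 174 bp from Tradd, the adaptor of TNF receptor 1, at 4.22-fold (1.76 to 9.48, 4 tags). A peak assigned to Tatdn2 lay 1475 bp from Irak2, a kinase of interleukin-1 receptor signalling, at 5.68-fold (2.81 to 10.6, 8 tags). None of the 10 genes gained a peak in this way.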
